A study of Mus musculus with 9 samples.

Results

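Kinesins are motor proteins that use ATP to move along microtubules or, in some subfamilies, to take microtubules apart. In the testis they position chromosomes in the dividing spermatocyte, and in the spermatid they carry material along the manchette, the transient microtubule skirt that shapes the sperm head, and into the growing flagellum. The kinesin family was taken as every protein-coding gene in the table whose symbol is Kif or Kifc followed by a number and at most 1 letter, which gave 41 genes of 38674 rows, 21019 of them protein-coding. No measured value entered the choice. The members fell into 14 motors of spindle and cytokinesis, 9 of cilia and flagella, and 18 with cargo or other roles. Roles were given gene by gene from textbook function, so a subfamily can be split. Kif2a was placed with the 18, although the related Kif2b and Kif2c were placed with the spindle.

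RNA was measured in whole testis, stripped of its tunica albuginea, from male C57BL/6 mice with 3 animals per genotype. The genotypes were Pfn3+/+ (WT), Pfn3+/– (Het) and Pfn3–/– (KO), and the comparisons ask which transcripts depend on profilin 3, an actin-binding protein of spermatids. Pfn3 had been mutated with CRISPR/Cas9 in several lines carrying different deletions, and the labels do not say which line, or which age, gave the RNA. The labels name separate numbered samples of each genotype, and p-values measure the spread between those samples.

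The libraries held 3375546 to 4287335 reads on genes, and values are normalized counts, that is, reads divided by a size factor for each library. A transcript at or under 3 reads, which equals 2.58 to 3.71 normalized counts, was treated as not detectable at this depth. The Pfn3 transcript itself was at 592, 383 and 373 normalized counts in WT, at 136, 339 and 326 in Het and at 74.7, 215 and 279 in KO, so it was lower in every KO than in every WT animal without being absent. Reads of this method lie at the 3′ end of a transcript, and where the Pfn3 reads lie relative to the deletions was not examined. The study reports by qRT-PCR, western blotting and immunohistochemistry that Pfn3 was deleted in the mutant mice. WT replicate 1 stood apart from the other WT libraries, with correlations across genes of 0.927 and 0.926 against 0.969 between WT replicates 2 and 3. It held the highest of the 9 values for 12 of the 35 kinesins with a mean of at least 10, and the lowest for 5. Of the defining markers, those of spermatids, spermatocytes and Leydig cells were detected in every group, and 3 of 5 epididymis markers were at 0 in all 9 animals.

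The promoters of the kinesins on which the KO against WT comparison turns are shown first, because these 5 genes and Kif21b were the members at an unadjusted p under 0.05. RefSeq promoter windows, from 250 bases before to 50 after the annotated start, were found for 33 of the 41 members on GRCm38.p6. Each is printed 5′ to 3′ in the direction of its gene, and capitals mark matches on either strand to the CRE half-site TGACG, bound by CREB-type factors, the CCAAT box CCAAT, the RFX half-site GTTGCC, named after the factors of ciliary genes, the cell-cycle element CHR, TTTGAA, and the TATA box TATAAA. Where 2 matches overlap, the capitals run together.
Kif2b, chr11:91577506-91577805, minus strand: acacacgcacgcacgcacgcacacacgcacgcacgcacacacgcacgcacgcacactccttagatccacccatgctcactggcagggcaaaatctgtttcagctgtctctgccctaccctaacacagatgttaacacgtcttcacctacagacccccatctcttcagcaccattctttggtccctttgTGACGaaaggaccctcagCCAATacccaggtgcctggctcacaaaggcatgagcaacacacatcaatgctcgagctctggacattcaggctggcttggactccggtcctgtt
Kif3a, chr11:53567119-53567418, plus strand: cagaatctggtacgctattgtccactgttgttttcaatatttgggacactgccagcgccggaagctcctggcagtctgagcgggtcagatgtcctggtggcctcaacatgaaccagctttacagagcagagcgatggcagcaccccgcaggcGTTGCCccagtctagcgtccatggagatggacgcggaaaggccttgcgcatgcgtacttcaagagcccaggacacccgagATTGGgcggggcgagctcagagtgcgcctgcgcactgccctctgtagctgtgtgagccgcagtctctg
Kif18b, chr11:102925075-102925374, minus strand: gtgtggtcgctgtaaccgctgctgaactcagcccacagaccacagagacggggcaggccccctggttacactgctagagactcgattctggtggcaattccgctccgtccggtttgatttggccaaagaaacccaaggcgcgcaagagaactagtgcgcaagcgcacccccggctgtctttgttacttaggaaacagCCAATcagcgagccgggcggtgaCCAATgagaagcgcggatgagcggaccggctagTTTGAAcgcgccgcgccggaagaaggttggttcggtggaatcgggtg
Kif5c, chr2:49619036-49619335, plus strand: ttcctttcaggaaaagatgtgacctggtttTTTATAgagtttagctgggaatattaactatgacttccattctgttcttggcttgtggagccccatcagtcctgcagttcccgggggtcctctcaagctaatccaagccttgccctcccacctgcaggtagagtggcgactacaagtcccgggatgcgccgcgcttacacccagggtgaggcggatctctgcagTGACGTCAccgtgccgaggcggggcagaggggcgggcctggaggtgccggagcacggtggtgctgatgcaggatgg
Kif18a, chr2:109280488-109280787, plus strand: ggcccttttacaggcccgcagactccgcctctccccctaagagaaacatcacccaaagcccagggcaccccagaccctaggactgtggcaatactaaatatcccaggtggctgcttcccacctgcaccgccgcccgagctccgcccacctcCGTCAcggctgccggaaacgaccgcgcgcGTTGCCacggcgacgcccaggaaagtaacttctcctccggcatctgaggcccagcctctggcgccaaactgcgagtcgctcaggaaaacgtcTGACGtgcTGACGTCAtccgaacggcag

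The CRE half-site was found in Kif2b, Kif5c and Kif18a, in 16 of the 33 kinesin promoters (48.5%) and in 20.8% of all 32851 promoter windows. The CCAAT box was found in Kif2b, Kif3a and Kif18b, in 16 kinesin promoters (48.5%) and in 37.4% of all windows. The RFX half-site was found in Kif3a and Kif18a, in 8 kinesin promoters (24.2%) and in 12.5% of all windows. The CHR element was found only in Kif18b among the 5 shown, in 13 kinesin promoters (39.4%) and in 17.9% of all windows. The TATA box was found only in Kif5c among the 5, in 4 kinesin promoters (12.1%) and in 13.6% of all windows. These shares are descriptions of letter matches, and base composition was not matched between kinesin and other promoters. The kinesin shares took the first window listed for each gene, while the shares of all windows took every window listed. No motif of this set was found in all of Kif2b, Kif3a, Kif18b and Kif5c, which had lower values in KO.

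Most of the kinesin RNA of the testis came from a few genes. The 41 members together made up 0.207 to 0.226% of all normalized counts in each of the 9 animals, and the 8 largest held 74.0% of the kinesin counts. Of the 41 members, 6 had a mean of at least 500 normalized counts over the 9 animals, 9 a mean of 100 to 500, 20 a mean of 10 to 100 and 4 a mean under 10. Kif12 and Kif19a had no signal in any animal, and so lay under the detection limit of 3 reads in each library.

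The highest member in WT was Kif2b, a kinesin-13 that depolymerizes microtubules at the spindle, at 1475 ± 121 normalized counts (SD, n = 3). Kif3b, a motor subunit of kinesin-2 that drives intraflagellar transport, followed at 1234 ± 130 normalized counts. Kif9, which sits in the central apparatus of the axoneme, was at 947 ± 190 normalized counts, and Kif3a, the partner of Kif3b, at 720 ± 82.3. These 4 levels overlapped between neighbours in part: the lowest WT value of Kif2b, 1386, lay just above the highest of Kif3b, 1382, while the ranges of Kif9 and Kif3a overlapped.

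Kif2c, the kinesin-13 of the centromere, was at 697 ± 75.7 normalized counts in WT, and Kif2a, a further kinesin-13, at 633 ± 136. Kif27, a relative of Kif7 required for motile cilia, was at 491 ± 144, Kif17, a second kinesin-2 of cilia and spermatids, at 457 ± 35.0, Kif5b, the ubiquitous conventional kinesin heavy chain, at 266 ± 32.5, and Kifc3, a minus-end motor, at 199 ± 82.7 normalized counts. The WT ranges overlapped between Kif3a and Kif2c, Kif2c and Kif2a, Kif2a and Kif27, Kif27 and Kif17, and Kif5b and Kifc3. Divided by the length of the longest coding transcript, the order was Kif2b with 657 normalized counts per kilobase, Kif9 with 297, Kif2c with 245, Kif3a with 228, Kif3b with 219 and Kif17 with 132. Reads at the 3′ end do not grow in number with transcript length, so both orders are given.

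**Figure D1:**
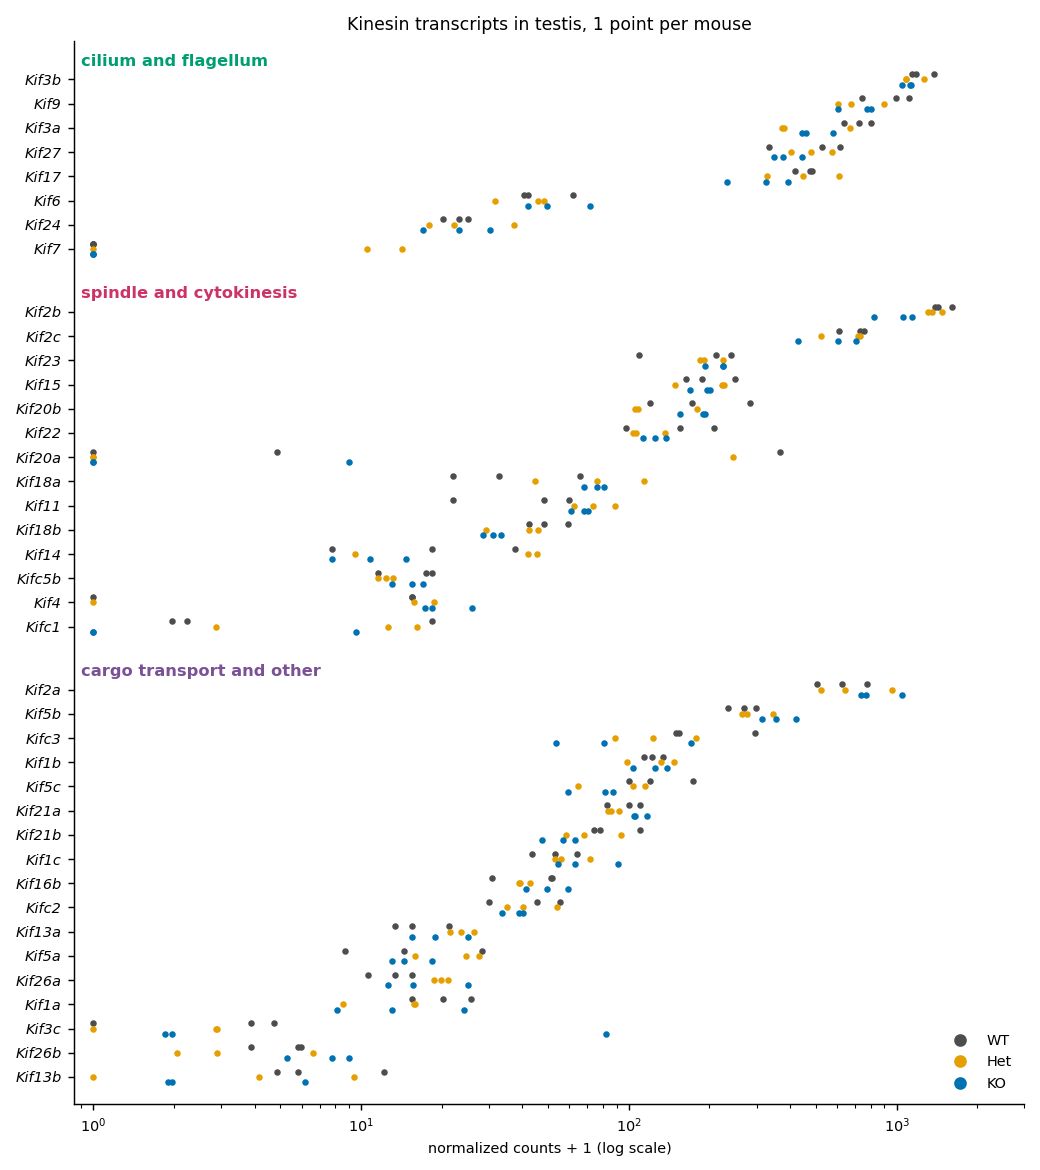
Each point is 1 mouse and gives the normalized counts plus 1 of 1 kinesin on a log axis, with genes grouped by role and sorted by mean, and WT, Het and KO in grey, orange and blue. The flagellar motors Kif3b, Kif9, Kif3a, Kif27 and Kif17 and the kinesin-13 genes Kif2b, Kif2c and Kif2a lie at the right, and Kif20a, Kif3c, Kif7 and Kifc1 scatter over a wide range of values; Kif12 and Kif19a, at 0 throughout, are not drawn.

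In KO against WT no kinesin passed the thresholds, an adjusted p under 0.05 together with a change of over 1.5 log2 units up or down. This held for limma (0 of 33 members tested, where 5 of 14223 genes passed, 0.0352%), for edgeR (0 of 33, where 0.0352% of genes passed) and for DESeq2 (0 of 36, where 0.531% of genes passed). The 8 members without a limma test, Kif12, Kif13b, Kif19a, Kif20a, Kif26b, Kif3c, Kif7 and Kifc1, did not reach 10 normalized counts in 3 of the 6 animals. The 95% confidence interval of the log2 fold change lay within 1.5 in both directions for 27 of the 33 members and within 1 for 15. Adjusted p-values ran from 0.610 to 0.996.

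Small unadjusted p-values made up a larger share of the kinesins than of all genes, mostly with KO below WT, which is a description of the family and not a test of it. At an unadjusted p under 0.05, 5 members were lower in KO (15.2%, against 5.03% of all genes tested) and 1 was higher (3.03%, against 3.04%), which makes 6 of 33 (18.2%, against 8.07%). The 3 KO values lay entirely below the 3 WT values for 7 members (21.2%, against 10.5%) and entirely above for 4 (12.1%, against 9.41%). Higher mean log2 values in KO were found for 13 of 33 members (39.4%, against 51.4%), and the median log2 fold change was -0.03 over the kinesins and 0.02 over all genes. The count of 6 rested on single libraries. It fell to 0 when WT replicate 3 was left out and to 2 when either KO replicate 2 or KO replicate 3 was, and it reached 8 (6 lower and 2 higher) when WT replicate 1 was. It was 4 by edgeR and 3 by DESeq2.

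**Figure D2:**
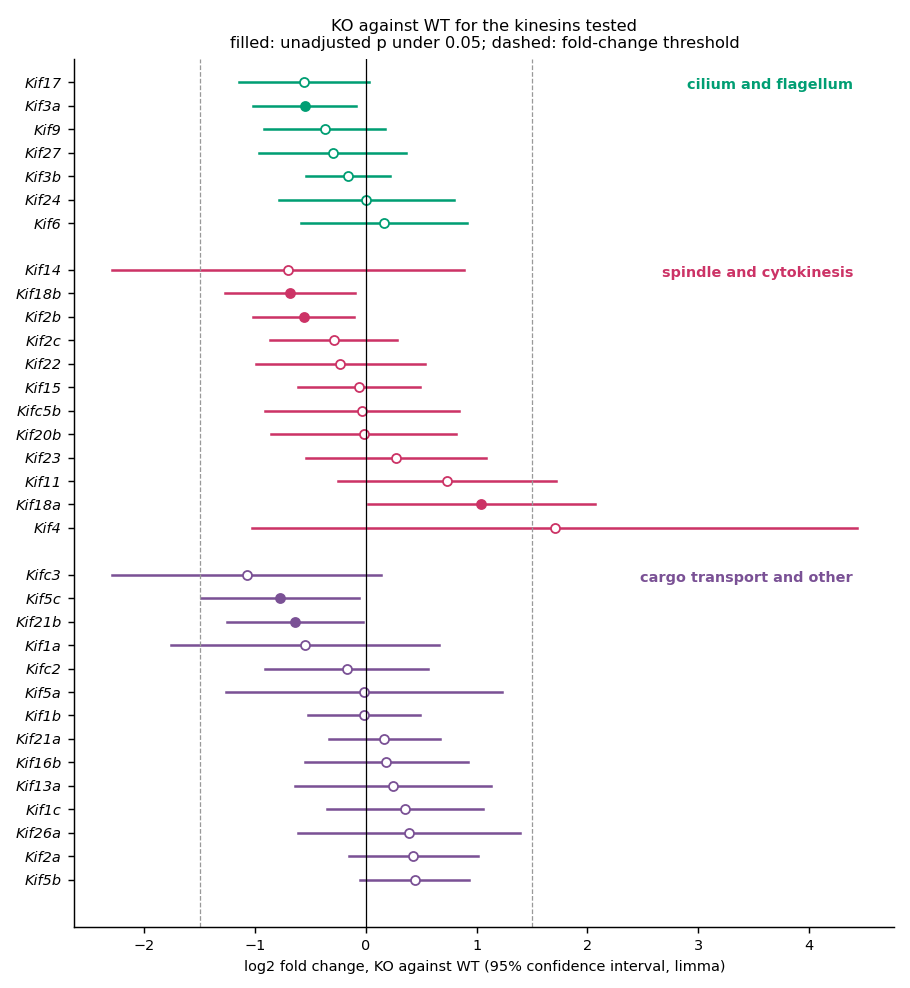
Points give the log2 fold change of KO against WT and lines its 95% confidence interval by limma for the 33 kinesins tested, grouped by role, with filled points for the 6 at an unadjusted p under 0.05 and dashed lines at 1.5 in each direction. Most points of the ciliary and flagellar group lie left of 0, the other groups spread to both sides, and Kif4 has the widest interval.

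Kif2b, on chromosome 11 from 91575315 to 91577558 of GRCm38 and made of 1 exon, had the smallest p of the family. Its normalized counts were 1426, 1386 and 1612 in WT, 1306, 1353 and 1477 in Het and 1053, 821 and 1143 in KO. Every KO animal lay below every Het and every WT animal, while Het and WT overlapped. The log2 fold change of KO against WT was -0.56 ± 0.19 (SE), with an unadjusted p of 0.0225 and an adjusted p of 0.610 by limma. No 50-base stretch of the Kif2b transcript was found in a transcript of another gene. The unadjusted p stayed under 0.05 under the alternative tests, filters and scalings and without any 1 library except WT replicate 3.

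Kif3a, at chr11:53567379-53601967, encodes a motor subunit of the kinesin-2 that builds cilia and the sperm tail. It was at 802, 638 and 721 normalized counts in WT, at 371, 670 and 379 in Het and at 578, 457 and 441 in KO. All KO values were below all WT values, and 2 of the 3 Het values were lower still. The log2 fold change of KO against WT was -0.55 ± 0.19 (SE; unadjusted p = 0.0274, adjusted p = 0.610, limma). Kif3a did not reach an unadjusted p under 0.05 with all 9 samples in 1 fit or with the replicate number as a block. Kif3a also did not without WT replicate 3, KO replicate 2 or KO replicate 3. Its partner Kif3b was at 1382, 1185 and 1135 in WT and at 1049, 1119 and 1128 in KO, again with every KO value below every WT value. The log2 fold change of Kif3b was -0.16, with a 95% confidence interval from -0.54 to 0.22 that overlaps that of Kif3a (-1.02 to -0.08), and -0.08 without WT replicate 1. A difference between the 2 genes was not tested.

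Kif17, which carries transcription coactivators and proteins in spermatids, was at 473, 417 and 481 normalized counts in WT, at 326, 609 and 447 in Het and at 324, 231 and 392 in KO. The KO animals lay below the WT animals, with Het spanning both. The log2 fold change of KO against WT was -0.56 ± 0.24 (SE), with an unadjusted p of 0.0576, and -0.35 without KO replicate 2.

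Kif18b, a kinesin-8 that shortens astral microtubules in mitosis, was at 58.2, 41.5 and 47.3 normalized counts in WT, at 28.3, 44.7 and 41.3 in Het and at 27.5, 30.0 and 32.2 in KO. Again KO and WT did not overlap, and Het reached into both ranges. The log2 fold change of KO against WT was -0.68 ± 0.24 (SE; unadjusted p = 0.0290, adjusted p = 0.610, limma). Kif18b did not reach an unadjusted p under 0.05 by DESeq2 or with the replicate number as a block. Kif18b also did not without WT replicate 3 or without any 1 KO library.

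Kif18a, the kinesin-8 that aligns chromosomes at metaphase and is needed for germ cell development, was the only member higher in KO at an unadjusted p under 0.05. It was at 21.0, 64.6 and 31.9 normalized counts in WT, at 113, 43.8 and 75.1 in Het and at 79.9, 66.8 and 75.1 in KO. The lowest KO animal lay just above the highest WT animal, and the 3 KO values were closer together than the 3 WT values. The log2 fold change of KO against WT was 1.04 ± 0.42 (SE), with an unadjusted p of 0.0463 and an adjusted p of 0.610, and it was 0.69 without WT replicate 1 and 0.97 to 1.47 without any other single library. The third kinesin-8, Kif19a, was at 0 in every animal.

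Among the cargo motors, Kif5c, a conventional kinesin heavy chain best known from neurons, was at 173, 99.4 and 119 normalized counts in WT, at 63.3, 114 and 103 in Het and at 85.9, 58.0 and 80.4 in KO. KO and WT did not overlap, and the log2 fold change was -0.78 ± 0.29 (SE; unadjusted p = 0.0371, limma). Kif5c did not reach an unadjusted p under 0.05 without WT replicate 1, WT replicate 3, KO replicate 2 or KO replicate 3. The ubiquitous heavy chain Kif5b pointed the other way, with 298, 233 and 267 in WT and 354, 421 and 314 in KO, again without overlap, at a log2 fold change of 0.44 and an unadjusted p of 0.0719. Kif21b, a kinesin-4 relative that limits microtubule growth, was at 73.0, 77.2 and 109 in WT, at 67.1, 92.2 and 57.1 in Het and at 55.8, 61.9 and 46.5 in KO. Its log2 fold change was -0.64 ± 0.25 (SE; unadjusted p = 0.0445, limma) and the unadjusted p ran from 0.0412 to 0.109 over the alternatives that kept every library. Adjusted p-values of Kif5c, Kif5b and Kif21b were all at 0.610 or above.

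**Figure D3:**
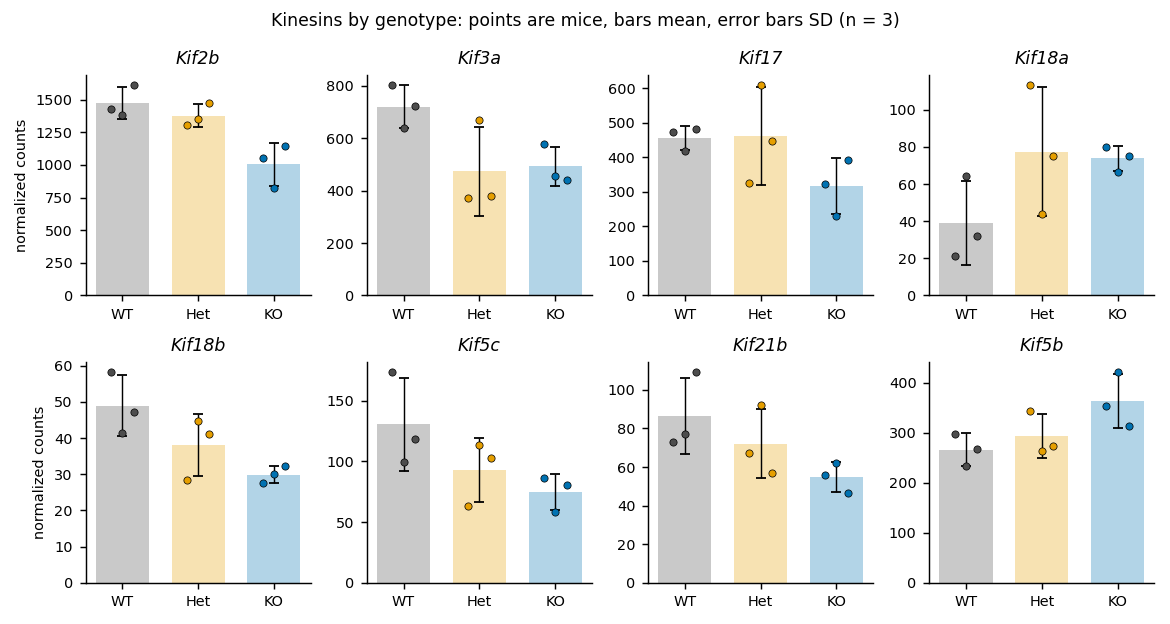
Bars give the mean normalized counts of 8 kinesins in WT, Het and KO, error bars the SD of 3 mice, and points the mice. In Kif2b, Kif3a, Kif17, Kif18b, Kif5c and Kif21b every KO point lies below every WT point, and in Kif18a and Kif5b every KO point lies above; no member shown passed the adjusted threshold.

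Of the 9 ciliary and flagellar motors, 7 were tested in KO against WT, and 5 had negative fold changes (Kif17, Kif3a, Kif9, Kif27 and Kif3b), with a median of -0.30 over the 7 and with 1 at an unadjusted p under 0.05. Over all genes tested, 51.4% had higher mean log2 values in KO, and 8.07% reached an unadjusted p under 0.05 (limma). Kif9 was at 739, 1110 and 991 normalized counts in WT and at 777, 602 and 801 in KO, a log2 fold change of -0.37 that was -0.24 without KO replicate 2 and -0.25 without WT replicate 2. Kif27, whose log2 fold change of -0.30 is the median of the group, was at 333, 525 and 614 in WT and at 376, 346 and 441 in KO. Without WT replicate 3 it was -0.12, and without WT replicate 1 -0.56. Kif6, an axonemal kinesin related to Kif9, was at 40.9, 60.8 and 39.6 in WT and at 70.4, 48.4 and 41.1 in KO, where the ranges overlapped. Kif24, which restrains the start of ciliation, stayed between 16.1 and 36.3 over the 9 animals. Summed over the 7, the ciliary and flagellar motors reached 3792 to 4001 normalized counts in WT, 3034 to 3919 in Het and 2826 to 3260 in KO, so KO and WT sums did not overlap. The mean of log2(value + 1) over the same 7 genes was 8.20 ± 0.08 in WT and 7.95 ± 0.15 in KO (SD, n = 3), with the highest KO animal at 8.11 and the lowest WT animal at 8.12.

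Of the 14 spindle motors, 12 were tested in KO against WT, 8 with lower and 4 with higher mean log2 values, at a median of -0.05, and 2 lower and 1 higher at an unadjusted p under 0.05. At that p, 5.03% of all genes tested were lower and 3.04% higher. Besides Kif18a, Kif11, the motor that pushes spindle poles apart, was higher in every KO than in every WT animal, at 21.0, 58.8 and 47.3 in WT, 72.8, 61.5 and 87.8 in Het and 69.6, 60.0 and 67.0 in KO. Its log2 fold change was 0.73, with an unadjusted p of 0.118, and 0.30 without WT replicate 1. Kif4, a chromokinesin on the X chromosome, was at 0, 14.5 and 14.5 in WT, at 0, 17.7 and 14.8 in Het and at 16.3, 17.4 and 25.0 in KO. Its fitted log2 fold change of 1.70 depended on the 0 in WT replicate 1, since it was 0.39 without that library. Kif2c was at 610, 727 and 752 in WT and at 604, 427 and 706 in KO, a log2 fold change of -0.29 with overlapping ranges that was -0.09 without KO replicate 2 and -0.45 without KO replicate 3.

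Kif23, the motor of the central spindle in cytokinesis and of intercellular bridges, was at 108, 239 and 211 normalized counts in WT and at 224, 192 and 223 in KO, with only WT replicate 1 low. Kif20b, also of the central spindle, was at 284, 119 and 171 in WT and at 191, 189 and 154 in KO, with WT replicate 1 at the high end. The minus-end motors Kifc5b and Kifc1 were low, Kifc5b at 10.6 to 17.3 over the 9 animals and Kifc1 at 0 to 17.4. The transcripts of this pair share sequence, with 38.6% of the 50-base stretches of Kifc1 also present in Kifc5b, so reads could be split between them and both levels are uncertain.

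Of 18 cargo and other motors, 14 were tested in KO against WT, 7 with higher and 7 with lower mean log2 values, at a median of 0.08 and with 2 lower at an unadjusted p under 0.05. At that p, 5.03% of all genes tested were lower. Kif2a was at 775, 504 and 622 in WT, at 961, 520 and 641 in Het and at 738, 1047 and 769 in KO, a log2 fold change of 0.43 with overlapping ranges that was 0.27 without KO replicate 2 and 0.28 without WT replicate 2. The summed level of the 14 ran from 1425 to 2081 normalized counts in WT and from 1718 to 2159 in KO. The spindle sum ran from 3015 to 3194 in WT and from 2104 to 2788 in KO, where Kif2b and Kif2c made up most of it. Kif2a, a kinesin-13 like Kif2b and Kif2c, was not in this sum. KO replicate 3 had a spindle sum of 2788 and Kif2a at 769, and WT replicate 2 had 3015 and 504. With Kif2a added, KO replicate 3 would lie above WT replicate 2, so the separation of the spindle sum depends on the role given to Kif2a. With every gene weighted equally the spindle motors did not separate, since the mean of log2(value + 1) over the 12 genes was 6.38 ± 0.25 in WT and 6.48 ± 0.14 in KO (SD, n = 3).

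The summed spermatocyte, round spermatid and elongating spermatid markers did not overlap between KO and WT. Of these genes, 0 passed the adjusted thresholds in KO against WT (lowest adjusted p 0.529, Prm2, limma). The 4 elongating spermatid markers (Tnp1, Tnp2, Prm1 and Prm2) summed to 233289 to 249362 normalized counts in WT, 179063 to 214894 in Het and 123388 to 199672 in KO. The 8 round spermatid markers summed to 7472 to 9605 in WT, 5639 to 7695 in Het and 3912 to 5998 in KO, whereas the 9 spermatocyte markers summed to 6893 to 8844 in WT, 6840 to 9438 in Het and 9162 to 9857 in KO. All 3 sums separated KO from WT, and 0 of these 21 genes were at 0 throughout. With every gene weighted equally the spermatocyte markers overlapped, at a mean log2(value + 1) of 7.94 ± 0.29 in WT and 8.26 ± 0.36 in KO (SD, n = 3). The 4 spermatogonia markers summed to 60.8 to 86.7 in WT and 81.3 to 90.2 in KO, which overlapped. In KO against WT, 7 of 8 round spermatid and 4 of 4 elongating spermatid markers had lower mean log2 values and 7 of 8 spermatocyte markers tested had higher ones. Of all genes tested, 51.4% had higher mean log2 values in KO. In whole testis fewer cells of a type and less RNA per cell cannot be told apart, and the part of the marker shift in the kinesin differences was not tested.

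**Figure D4:**
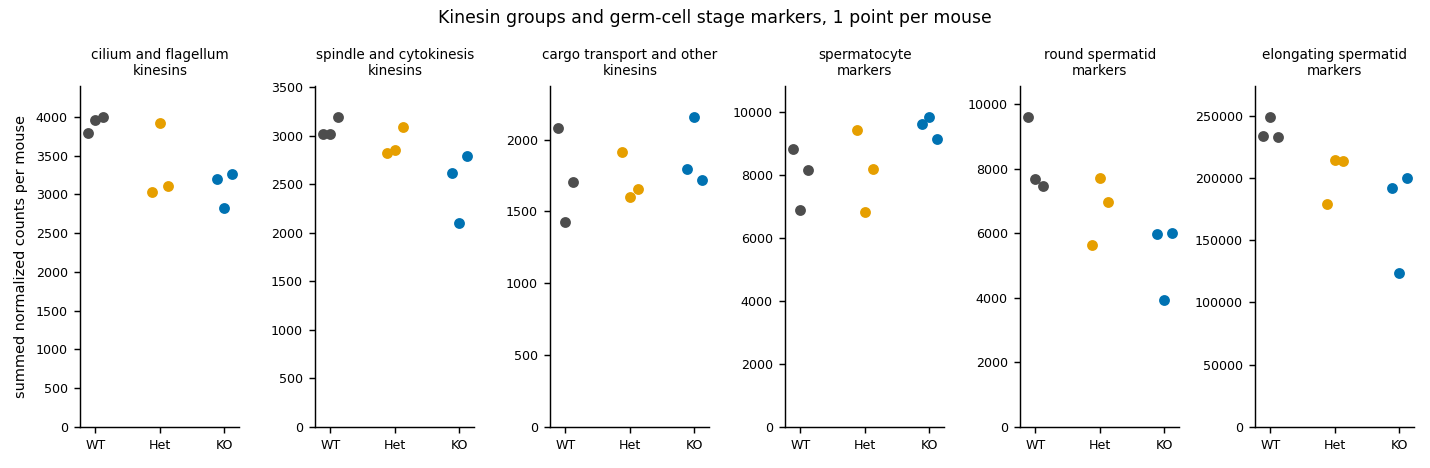
Each point is 1 mouse and gives summed normalized counts, on axes that start at 0, for the tested kinesins of each role and for spermatocyte, round spermatid and elongating spermatid markers. KO points lie below WT points for the ciliary and spindle kinesins and both spermatid marker lists, above WT for spermatocyte markers, and overlap WT for the cargo kinesins. The sums follow the most abundant genes, and Kif2a is counted with the cargo kinesins. With Kif2a added to the spindle kinesins, their KO and WT sums would overlap. The mean log2 levels of the spindle kinesins and of the spermatocyte markers overlapped between KO and WT.

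In Het against WT none of the 34 members tested passed the thresholds with limma (0 of 14216 genes passed, 0%), with edgeR (0 of 34, and 0% of genes) or with DESeq2 (0 of 35, and 0.206% of genes). None reached an unadjusted p under 0.05 either, where 3.34% of all genes did, although 2 members did so with all 9 animals in 1 fit, 2 when WT replicate 2 was left out and 1 when Het replicate 2 was. The 3 Het values lay above the 3 WT values for Kif11, Kif13a and Kif26a (8.82% of members, against 6.76% of genes) and below for 0 members (against 6.49%), and 16 of 34 members had higher mean log2 values (47.1%, against 50.5%). Kif13a and Kif26a were low, Kif13a at 12.4, 20.3 and 14.5 in WT and at 22.7, 20.5 and 25.4 in Het, and Kif26a at 12.4, 9.65 and 14.5 in WT and at 18.9, 17.7 and 20.1 in Het. The most negative log2 fold change, -0.65, was that of Kif3a, at 720 ± 82.3 normalized counts in WT and 474 ± 171 in Het (SD, n = 3), with overlap because Het replicate 2 lay within the WT range.

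In KO against Het 0 of 33 members passed with limma (0.0558% of 14343 genes passed), 0 of 33 with edgeR (0.0488% of genes) and 0 of 36 with DESeq2 (0.269% of genes). Kif2b alone reached an unadjusted p under 0.05 (3.03% of members, against 3.56% of genes), at a log2 fold change of -0.47 ± 0.16 (SE), an unadjusted p of 0.0279 and an adjusted p of 0.973 by limma. The count was 2 by edgeR, 3 by DESeq2, 4 when Het replicate 1 was left out, and 0 when Het replicate 2 or Het replicate 3 was. Kif2b was also the only member with every KO value below every Het value (3.03%, against 4.9% of genes), while Kif21a, a kinesin-4 relative of axons, was the only one above (3.03%, against 5.12%). Kif21a was at 90.7, 84.7 and 82.5 normalized counts in Het and at 104, 116 and 105 in KO, with 109, 82.0 and 99.5 in WT, which overlapped both. Of the 33, 15 had higher mean log2 values in KO (45.5%, against 49.7%). KO against WT and KO against Het share the KO animals, and KO against WT and Het against WT share the WT animals.

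The kinesins spread less between animals of a genotype than genes in general, by their medians. The median SD of log2(value + 1) within a genotype was 0.33 over the 34 kinesins kept in at least 3 animals and 0.45 over 14865 genes kept likewise, and 0.32 over 15 kinesins against 0.35 over 5851 genes with a mean of at least 100. Of the 34, the steadiest within a genotype were Kif3b with an SD of 0.12, Kif21a with 0.14 and Kif2b with 0.17. Over all 9 animals, genotypes included, the lowest SD of the 34 were those of Kif3b with 0.13, Kif21a with 0.18 and Kif1b with 0.20.

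The 5 most variable members with a mean of at least 10 were Kif20a, Kif3c, Kif4, Kif14 and Kif18a. Kif20a, a motor of the central spindle, was at 0, 365 and 3.86 normalized counts in WT, at 0, 245 and 0 in Het and at 0, 0 and 8.04 in KO. High and zero values thus stood side by side among animals of 1 genotype. Kif20a overlaps Cdc23, a subunit of the anaphase-promoting complex on the opposite strand, by 2327 bases, and Cdc23 was at 0, 56.0 and 360 in WT, at 40.6, 35.4 and 44.4 in Het and at 57.5, 39.7 and 142 in KO. The sum of both genes was 0, 421 and 364 in WT, 40.6, 280 and 44.4 in Het and 57.5, 39.7 and 150 in KO. In Het replicate 2 Kif20a was high while Cdc23 was close to its level in the other Het animals.

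Kif3c, a kinesin-2 subunit, was at 81.3 normalized counts in KO replicate 3 and at most 3.71 in the other 8 animals. Of its transcript's 50-base stretches 34.7% are the reverse complement of an antisense RNA, 1110002L01Rik, which was at 0 to 9.31. Kif14, a motor of the midbody, was at 17.3, 36.7 and 6.76 in WT, at 8.50, 41.0 and 44.4 in Het and at 13.7, 6.77 and 9.83 in KO. Kif7, the ciliary regulator of Hedgehog signalling, was at 13.2 and 9.52 in 2 Het animals and at 0 in the other 7 animals.

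Kifc3 had the most negative fitted log2 fold change of KO against WT, -1.08 ± 0.50 (SE; unadjusted p = 0.0734, limma), which was -0.70 without KO replicate 2. It was at 295, 150 and 154 normalized counts in WT, at 87.9, 177 and 122 in Het and at 170, 52.2 and 79.5 in KO, so that 1 KO animal lay within the WT range. The sources used here do not give the strand setting of the counting, so reads of such overlapping genes may not be told apart. Over 10% of the 50-base stretches were shared with another gene, on either strand, in 8 members, and 15 members shared none. The 8 were Kif20a, Kif3c, Kifc3, Kif2a, Kif4, Kif7, Kifc1 and Kifc5b. In Kif2a 17.9% were the reverse complement of Dimt1, and in Kif4 14.2% that of Pdzd11. The levels and fold changes given for Kif2a and Kif4 carry this limit too.

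**Figure D5:**
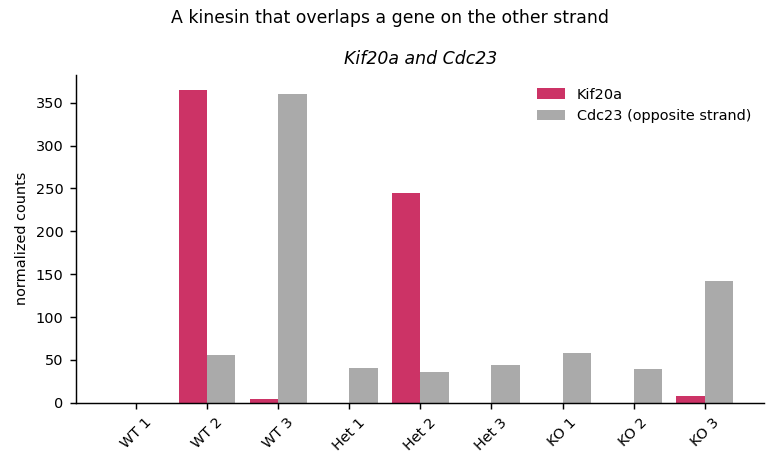
Paired bars give the normalized counts of Kif20a and of Cdc23, which overlap on opposite strands, in each of the 9 mice. Kif20a is high in WT replicate 2 and Het replicate 2 only, and Cdc23 is highest in WT replicate 3.

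The partners of the motors were described from a list of light chains, adaptors and spindle cofactors, of which 17 were measured and tested. In KO against WT, 9 had higher and 8 lower mean log2 values, at a median of 0.02, and 0 passed the adjusted thresholds. Klc3, the kinesin light chain of spermatids that binds the outer dense fibres of the tail, was the only one at an unadjusted p under 0.05, 1 of 17, where 8.07% of all genes reached it. It was at 180, 86.8 and 72.4 normalized counts in WT, at 46.3, 39.1 and 37.0 in Het and at 46.4, 7.74 and 45.6 in KO. Every Het and every KO animal lay below every WT animal, as did 6.49% of all genes in Het and 10.5% in KO, with a log2 fold change of -1.97 ± 0.75 (SE; unadjusted p = 0.0372, adjusted p = 0.610, limma) in KO and of -1.34 ± 0.38 (SE; unadjusted p = 0.0120, adjusted p = 0.779, limma) in Het. These 2 comparisons share the WT animals. In Het against WT 7 partners were higher and 10 lower, and in KO against Het 11 were higher and 6 lower, with 0 of 17 at an unadjusted p under 0.05 in the latter. Kifap3, which binds the Kif3a and Kif3b pair to its cargo, was at 2271, 1358 and 1249 in WT, at 907, 1293 and 1255 in Het and at 1164, 789 and 1292 in KO, with overlapping ranges.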

How the data were processed

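QuantSeq 3′ mRNA libraries of testis from 9 mice, 3 per Pfn3 genotype, were analysed. Per the labels and the study's methods, the authors trimmed reads with Trim Galore 0.4.5, aligned them to GRCm38 with HISAT2 2.1, counted genes with StringTie 1.3.3, removed pseudogenes and used DESeq2. The deposited values are a signal: gene counts divided by 1 size factor per library (normalized counts). StringTie derives its counts from coverage, so they are estimates, and its strand setting is not given in the sources used here. All nonzero values (100%) were whole multiples of 1 step per library, within 1e-06, which gave back whole reads.

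Genes that reached 10 normalized counts in 3 or more of the 6 animals compared were tested on log2(value + 1) with limma 3.58.1 (eBayes with a trend, two-sided) in R 4.3.3, Benjamini-Hochberg adjusted over all genes tested. A call needed an adjusted p under 0.05 together with a change of over 1.5 log2 units up or down. A fold change on this scale understates the change of low genes. Alternatives were edgeR 4.0.16 and DESeq2 1.42.0 on the recovered reads, other filters, pseudocounts, scalings and thresholds, and leaving out each library. The test functions were tested on simulated data. Roles and gene lists came from textbook knowledge, and positions and lengths from GENCODE vM21. Named with values were members at an unadjusted p under 0.05, the 10 highest in WT, the 5 most variable with a mean of at least 10, members with known roles in spermatids or meiosis, and partners at an unadjusted p under 0.05; further members whose groups did not overlap, Kif2c, Kif7, Kif24, Kif1b and Kifap3 were added after their values were seen. The members and lists were chosen with earlier results of these data known. Of 18 partners listed, 17 were measured. Python 3.11.15 and matplotlib 3.10.9 drew the figures.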

Additional observations from a re-analysis of the deposited data

How the results depend on the processing

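No kinesin was called in any of the 3 comparisons under any of the 17 alternatives. For a chosen set of 17 fold changes, all 255 values computed under alternatives kept their direction. The set held named kinesins in KO against WT, and Kif2b in KO against Het. It included every tested kinesin whose KO and WT values did not overlap, and Kif2b did not overlap in KO against Het either. For these, leaving out 1 library could not reverse the direction, so their agreement there was fixed by the choice of genes. Other named kinesins, among them Kif23, Kif20b, Kif6, Kif14, Kif13a and Kif26a, and fold changes of Het against WT were not followed in this way. The count of all genes called in KO against WT (5) was 104 with DESeq2, 10 with a filter of at least 1, 3 with all 9 samples in 1 fit and 0 to 49 when 1 library was left out. In Het against WT (0) it was 33 with DESeq2, 3 with a filter of at least 1, 3 with no filter, 2 with a pseudocount of 5, 1 with TMM scaling, 3 with all 9 samples in 1 fit and 0 to 3 when 1 library was left out. In KO against Het (8) it was 46 with DESeq2, 4 with all 9 samples in 1 fit and 0 to 39 when 1 library was left out. The median kinesin log2 fold change of KO against WT (-0.0343) was -0.0729 with edgeR, -0.123 with DESeq2 and -0.190 to 0.0212 when 1 library was left out, where the positive value was that without WT replicate 1. In Het against WT (-0.0192) it was -0.131 to 0.00301 and in KO against Het (-0.0544) -0.166 to -0.0158 when 1 library was left out. The cause of these shifts was not tested. With the replicate number as a block, 0 genes were called in KO against WT and 0 in KO against Het, and 3 kinesins (Kif2b, Kif5c and Kifc3) had an unadjusted p under 0.05 in KO against WT. Same-numbered animals of WT and KO had correlations of their deviations of -0.12, -0.05 and -0.03. Those of WT and Het had 0.17, 0.19 and -0.03, and those of Het and KO -0.14, -0.11 and 0.07. With 3 animals per genotype these values cannot show whether the numbers mark pairs. The depth allows no statement on Kif12 and Kif19a, and few on members under 10 normalized counts.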
